A study of Mus musculus with 15 samples.

Results

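Respiratory complex I is the enzyme through which most NADH electrons enter the mitochondrial respiratory chain, and the 35 genes described here are nuclear genes that encode its subunits. The list was fixed by name, and all 35 genes were found among the 56748 gene identifiers of the deposited tables, under 1 identifier each. By the place of their protein in the enzyme they were taken as 6 core subunits of the arm that oxidizes NADH and reduces ubiquinone, 9 accessory subunits of that peripheral arm, 9 of the proximal membrane arm, 10 of the distal membrane arm, and Ndufab1, the mitochondrial acyl carrier protein. The remaining 7 subunits considered here are encoded in mitochondrial DNA and were compared with the nuclear ones.

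The study followed regeneration of the tibialis anterior muscle of male C57BL/6 mice, 8 weeks of age, after injection of 50 µL of cardiotoxin (CTX) at 0.1 mg/mL, a snake venom toxin that lyses muscle fibers. Polyadenylated RNA was sequenced from muscle 4 days after CTX (Proliferation Stage, n = 4), 7 days after CTX (Differentiation Stage, n = 4) and 14 days after CTX (Maturation Stage, n = 4), and from muscle without CTX (Uninjected, n = 3). The RNA came from frozen muscle fibers with the cells attached to them, although the labels call the material bulk tissue. No gene was altered in any group, and each library carries its own subject number, here its replicate number, and was treated as 1 animal. Both never-injected mice and the opposite, uninjected limb of CTX mice served as controls in the study, and it is unclear from the labels which of them gave the Uninjected RNA. Leukocytes carrying CD45 were depleted from the fibers used for protein and DNA, and whether the RNA aliquots were depleted in the same way is not stated.

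Complex I is L-shaped. Its peripheral arm reaches into the matrix, takes electrons from NADH on a flavin and passes them along iron-sulfur clusters to ubiquinone, and its membrane arm pumps protons across the inner membrane. The core subunits carry out this chemistry, and the accessory subunits surround them and are needed for assembly and stability. Adult limb muscle fibers are rich in mitochondria.

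Values are deposited FPKM, fragments divided by the gene's length and by a scale of the library, so that levels of different genes are per length. The libraries held 5198418 to 7209330 fragments in genes at the Proliferation Stage, 1471339 to 6293109 at the Differentiation Stage, 1479307 to 5544565 at the Maturation Stage and 2302641 to 4455116 in Uninjected muscle, and the lowest member value in any library rested on 24 fragments. FPKM summed over genes to 168508 to 385621, 260942 to 430860 and 431734 to 483921 at the 3 stages in time order and to 469399 to 492337 in Uninjected muscle, so the scaling itself differed between groups and a second scale, TPM (FPKM rescaled to the same total in each library), is given where it turns a direction. The summed FPKM of 10 adult fiber markers was 6456 to 70776 at the Proliferation Stage, 44903 to 98824 at the Differentiation Stage, 100313 to 123403 at the Maturation Stage and 70780 to 115945 in Uninjected muscle. The summed FPKM of 10 macrophage markers was 1298 to 3143, 81.6 to 1155 and 20.2 to 63.3 at the 3 stages, against 5.02 to 17.3 in Uninjected muscle, and 10 of 10 rose at the Proliferation and at the Differentiation Stage. No fiber or macrophage marker was at 0 throughout a group. The summed FPKM of 7 markers of fibro-adipogenic progenitors was 365 to 1242, 183 to 1744 and 137 to 307 at the 3 stages, against 76.0 to 136 in Uninjected muscle, and 5 of 7 rose at the Proliferation Stage and 4 of 7 at the Differentiation Stage. That of 5 markers of satellite cells and myoblasts was 232 to 504, 73.7 to 261 and 20.9 to 32.2, against 14.3 to 25.2 in Uninjected muscle, where Mymk was at 0 in every library, and 5 of 5 rose at both early stages. The part of these cell types in the results below was not tested, and in bulk RNA fewer cells of a type and less RNA per cell cannot be told apart.

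In Uninjected muscle the 35 genes differed 140.0-fold in level between the highest and the lowest, and 26 of them lay between 50 and 250 FPKM. The highest were Ndufb11 at 326 ± 20.9 FPKM (SD, n = 3), a distal membrane arm subunit, and Ndufa2 at 282 ± 31.2 FPKM, a small subunit of the peripheral arm with a thioredoxin fold, whose ranges of 307 to 349 and 247 to 308 FPKM overlap. The lowest were Ndufab1 at 20.9 ± 4.25 FPKM and Ndufb2 at 2.33 ± 0.511 FPKM, and these ranges do not overlap. This ranking depends on the annotated lengths, 6883 bases for Ndufab1 and 5628 for Ndufb2, against 908 for Ndufb11 and 572 for Ndufa2. In Uninjected replicate 1, for example, Ndufab1 held 431 fragments and Ndufa2 344. The order of the levels was much the same in every group: across the 35 genes, which are not independent replicates, Spearman's rho with the Uninjected means was 0.976 for the Proliferation Stage, 0.971 for the Differentiation Stage and 0.983 for the Maturation Stage.

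**Figure D1:**
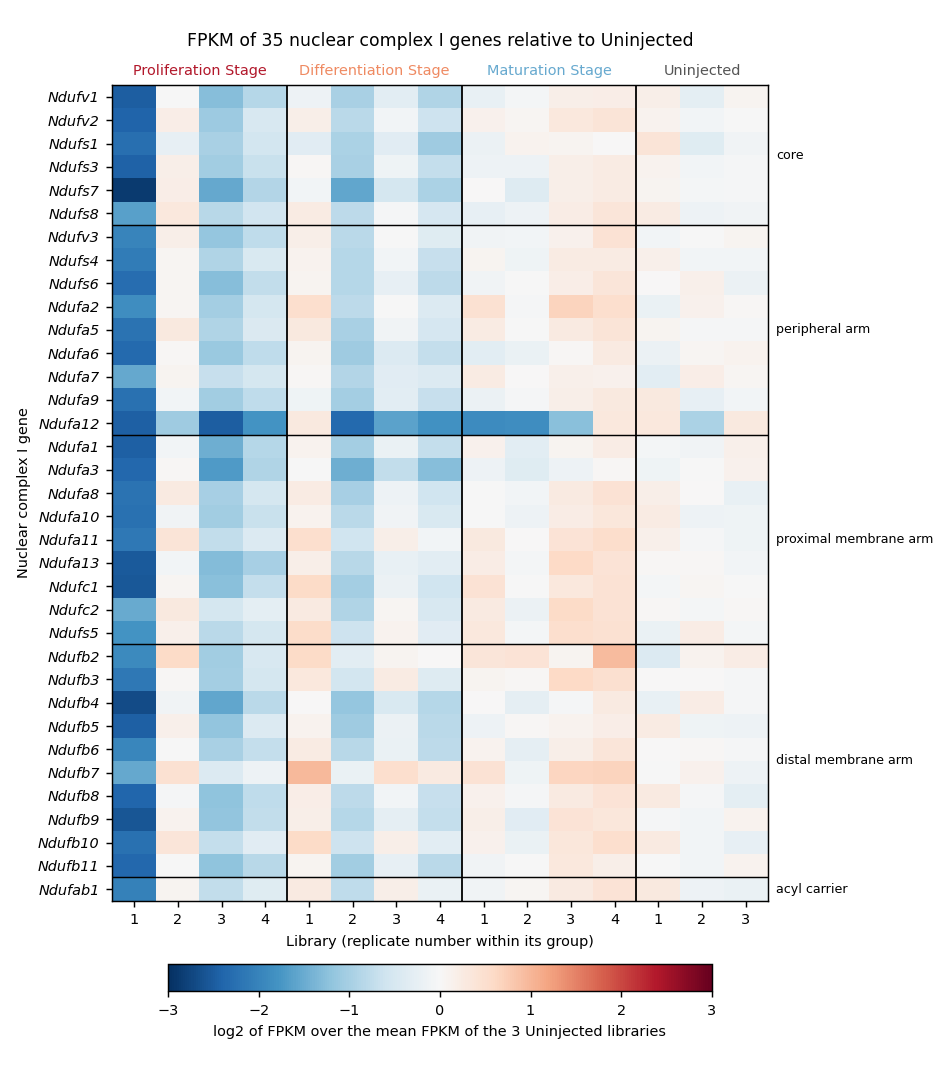
Heat map of the 35 nuclear complex I genes (rows, grouped by the place of the subunit) in the 15 libraries (columns). Color is log2 of the FPKM over the mean of the 3 Uninjected libraries; the first Proliferation Stage library is blue in nearly every row, the second is close to Uninjected, and the Maturation Stage libraries are pale to red apart from Ndufa12.

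On the deposited scale, nuclear complex I genes had their lowest mean levels 4 days after CTX and most had their highest 14 days after CTX. All 35 had their lowest mean FPKM at the Proliferation Stage, the means of 34 ascended over the Proliferation, Differentiation and Maturation Stages, and 31 had their highest mean at the Maturation Stage, 3 in Uninjected muscle and 1 at the Differentiation Stage. The summed FPKM was 2745 ± 1651 at the Proliferation Stage, 3731 ± 1291 at the Differentiation Stage and 5132 ± 762 at the Maturation Stage (SD, n = 4 each), against 4614 ± 165 in Uninjected muscle (n = 3). As TPM the sum was 9464 ± 2828, 11164 ± 1444 and 11201 ± 1585 at the 3 stages, against 9621 ± 535 in Uninjected muscle, so the means of the Differentiation and Maturation Stages were close to each other and that of the Proliferation Stage was close to that of Uninjected muscle. Single libraries overlapped widely. The Proliferation Stage libraries stood at 988, 4918, 2159 and 2914 FPKM, the Differentiation Stage libraries at 5360.1, 2433, 4116 and 3014 FPKM, the Maturation Stage libraries at 4822, 4208, 5626 and 5871 FPKM, and the Uninjected libraries at 4802, 4496 and 4544 FPKM. The second Proliferation Stage library was thus above all 3 Uninjected libraries, and the other 3 were below them.

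At the Proliferation Stage against Uninjected muscle, 1 of 35 genes fell and 0 rose at an adjusted p under 0.05 (limma on log2(FPKM + 0.5), Benjamini-Hochberg over 13166 genes), where 9.05% of all genes tested fell. The gene that fell was Ndufa12. All 35 fold changes were below 0, against 47.5% of all genes, with a median of −0.94 on the log2 scale (0.523-fold) and a range of −1.81 to −0.39, and 4 had an unadjusted p under 0.05. Every Proliferation Stage library was below every Uninjected library for 1 of 35 genes, against 17.1% of all genes, so the share that separated was no higher than the background. The medians were close across the enzyme: the median log2 fold change was −0.97 for the core, −0.91 for the peripheral, −0.99 for the proximal and −0.92 for the distal accessory subunits. On the TPM scale the median was −0.06, 22 of 35 were below 0 and none passed the test, where 32% of all genes were called higher and 1.09% lower and the median of all genes was 0.90 on that scale and 0.05 on the deposited one. The members' median lay 0.99 below that of all genes on the deposited scale and 0.96 below it as TPM. The call count rests on single libraries: 18 genes fell without Proliferation Stage replicate 2, and 0 without Proliferation Stage replicate 3, Uninjected replicate 1 or Uninjected replicate 3. The share of all genes called in these fits is not given here, so the counts show only this dependence.

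At the Differentiation Stage against Uninjected muscle, limma called 0 of 35 genes in either direction, where 12.5% of all genes fell, and the unpaired test on FPKM also called 0. The median log2 fold change was −0.36, 32 of 35 were below 0 against 46.7% of all genes, 3 had an unadjusted p under 0.05, and the lowest adjusted p was 0.0864 (limma). The direction depends on the scale. As TPM the median was 0.22, 29 of 35 were above 0 and 3 passed the test as higher, where 27.1% of all genes were called higher and 3.59% lower, while all genes had a median of 0.06 on the deposited scale and 0.61 as TPM. Relative to all genes the members' median was −0.42 on the deposited scale, −0.40 as TPM and −0.06 after quantile normalization. Without the first Differentiation Stage library, which was the highest of its group in all 35 genes, 5 genes fell on the deposited scale. The share of all genes that fell in that fit is not given here.

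At the Maturation Stage against Uninjected muscle, limma again called 0 of 35 genes, with 0 at an unadjusted p under 0.05 and 0 by the unpaired test on FPKM. Of all genes 0.0245% were called higher. The median log2 fold change was 0.12 and 32 of 35 were above 0, against 50.2% of all genes. The lowest adjusted p was 0.396 (limma). With the mitochondrially encoded genes left out of the TPM total the median was −0.01, so no direction can be given for this stage. These 3 comparisons share the same 3 Uninjected libraries.

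On the deposited scale the largest median difference was between the Maturation and the Proliferation Stage. With TPM the median of the Differentiation Stage against the Proliferation Stage was larger, 0.28 against 0.23. At the Maturation Stage against the Proliferation Stage, 20 of 35 genes rose and 0 fell at an adjusted p under 0.05 (limma fit of all 15 libraries over 14576 genes), where 13.3% of all genes rose. The median log2 fold change was 1.03 (2.04-fold) and the range 0.72 to 1.51, against a median of −0.06 over all genes. Of the core subunits 3 of 6 rose, of the peripheral accessory subunits 5 of 9, of the proximal 5 of 9 and of the distal 7 of 10, and Ndufab1 did not pass. Every Maturation Stage library was above every Proliferation Stage library for 4 genes, namely Ndufs1, Ndufa13, Ndufb3 and Ndufb8, a share near the 11.4% of all genes. As TPM the median was 0.23, 30 of 35 were above 0 and 1 passed the test as higher, where 2.37% of all genes were called higher, with a median of −0.78 over all genes. The members' median thus lay 1.09 above that of all genes on the deposited scale and 1.01 above it as TPM.

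The count of 20 rests on which libraries are in the fit. It was 2 without Proliferation Stage replicate 1, 34 without replicate 2 and 1 without replicate 3, and it was 7, 11, 4 and 2 without Maturation Stage replicates 1, 2, 3 and 4 in turn. The fit of these groups alone called 1. Shares of all genes called in these fits are not given here, so the counts show only this dependence. Between neighboring stages limma called 0 of 35. The Differentiation Stage against the Proliferation Stage had a median log2 fold change of 0.59, with 3 genes at an unadjusted p under 0.05 and a background of 1.13% called higher, and 1 gene was called without the second Proliferation Stage library. The Maturation Stage against the Differentiation Stage had a median of 0.52, with 0 genes at an unadjusted p under 0.05 and a background of 4.71%. The unpaired test on FPKM called 0 in both. As TPM these medians were 0.28 and 0.01.

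**Figure D2:**
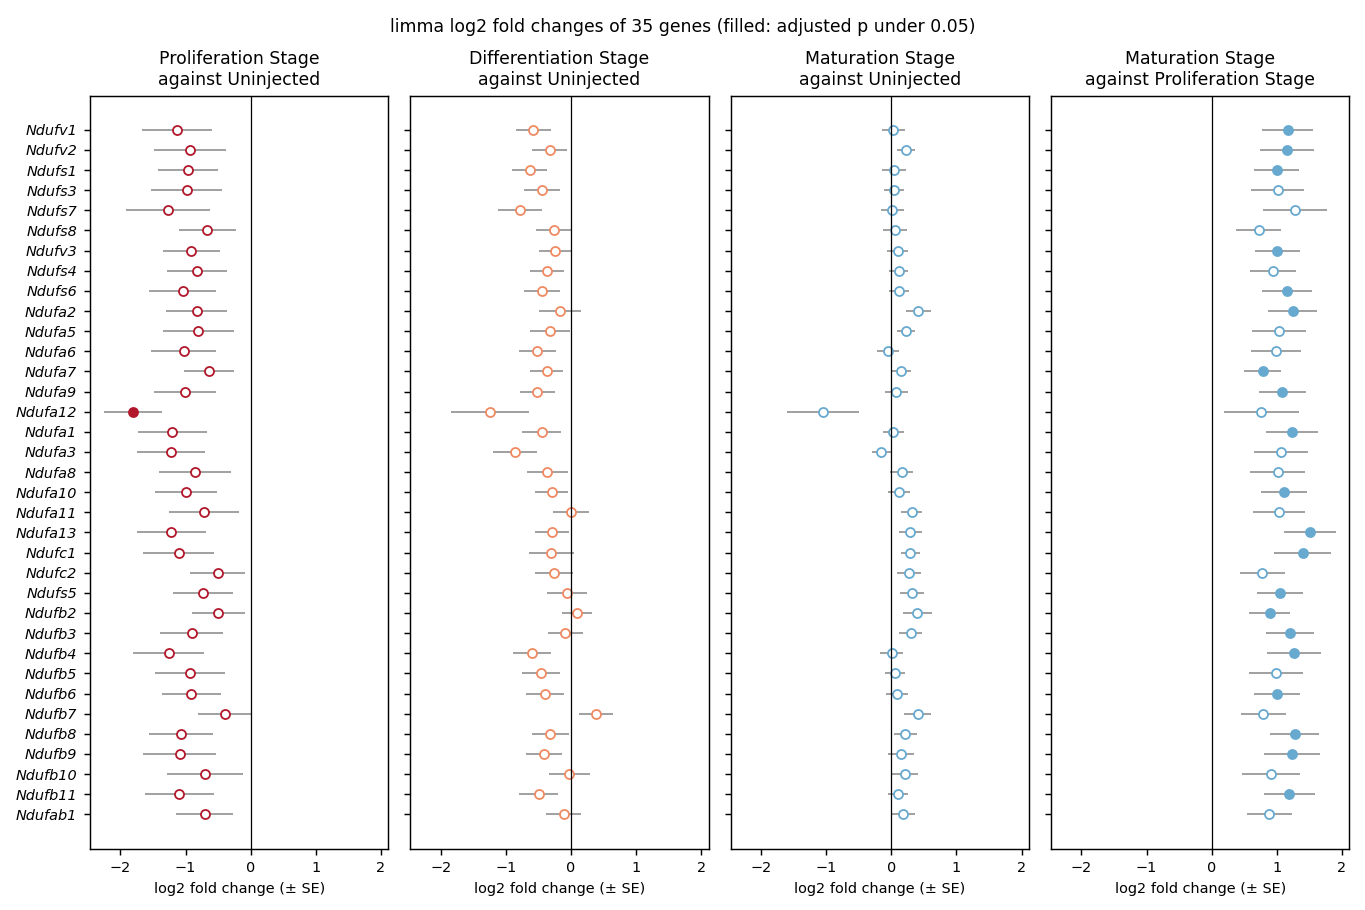
limma log2 fold changes (points) with their standard errors (lines) of the 35 genes in 4 comparisons on the deposited FPKM scale; filled points have an adjusted p under 0.05. In the first panel all 35 points lie below 0 and 1 is filled, and in the last all lie above 0 and 20 are filled.

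Among the core subunits, Ndufv1 binds the flavin that takes electrons from NADH. It was at 34.0, 186, 78.2 and 105 FPKM in the Proliferation Stage libraries, 169, 95.9, 152 and 100.1 FPKM in the Differentiation Stage libraries, 160.4, 181, 212 and 218 FPKM in the Maturation Stage libraries and 213, 155 and 198 FPKM in the Uninjected libraries. The Proliferation Stage library at 186 lay inside the Maturation Stage and Uninjected ranges and the other 3 lay below them. Ndufv1 rose at the Maturation Stage against the Proliferation Stage (log2 fold change 1.17, SE 0.39, adjusted p = 0.0352), and its log2 fold change of −1.13 (SE 0.54) at the Proliferation Stage against Uninjected muscle did not pass (adjusted p = 0.136). Ndufv2, its iron-sulfur partner, was at 27.7, 168, 68.7 and 104 FPKM, then 165, 83.1, 137 and 95.4 FPKM, then 159, 151, 183 and 189.9 FPKM at the 3 stages in time order, and at 156, 137 and 145 FPKM in Uninjected muscle. The same library, the second of the Proliferation Stage, was the high one. Ndufv2 also rose at the Maturation Stage against the Proliferation Stage (1.15, SE 0.41, adjusted p = 0.0443).

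Ndufs1, the largest core subunit, carries several of the iron-sulfur clusters. It was at 11.3, 45.6, 27.8 and 37.0 FPKM at the Proliferation Stage, 43.1, 28.2, 42.7 and 25.8 FPKM at the Differentiation Stage, 47.9, 58.3, 57.6 and 55.0 FPKM at the Maturation Stage, and 70.5, 41.9 and 50.6 FPKM in Uninjected muscle. All 4 Maturation Stage libraries were above all libraries of both earlier stages, and they overlapped the Uninjected libraries. The rise over the Proliferation Stage was 1.00 on the log2 scale (SE 0.35, adjusted p = 0.0381, exact permutation p = 0.0286, the smallest that 70 splits allow).

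Ndufs7, Ndufs3 and Ndufs8 build the end of the electron path near ubiquinone and did not pass in any comparison. Ndufs7, which holds the last iron-sulfur cluster, had the widest swing of the core: 34.8, 291, 87.3 and 138 FPKM at the Proliferation Stage, 240.4, 85.7, 175 and 131 FPKM at the Differentiation Stage, 254, 195, 285 and 302 FPKM at the Maturation Stage and 268, 243 and 249 FPKM in Uninjected muscle. All 4 Differentiation Stage libraries were below the 3 Uninjected ones (log2 fold change −0.78, SE 0.34, adjusted p = 0.116, exact permutation p = 0.0571). Ndufs3, a core subunit without a redox center, was at 22.8, 137, 59.0 and 76.2 FPKM, 125, 62.0, 111 and 74.2 FPKM, and 110.2, 110.1, 138 and 145 FPKM at the 3 stages in time order, against 131, 115 and 119 FPKM in Uninjected muscle. Ndufs8, whose clusters join the chain to the last one, was at 38.0, 146, 65.2 and 78.3 FPKM, 138, 67.2, 115 and 82.4 FPKM, and 98.3, 105, 136 and 149.8 FPKM, against 137, 105 and 108 FPKM in Uninjected muscle. Both had 1 Proliferation Stage library, the second, above the Uninjected range and the other 3 below it. The rise of Ndufs8 at the Maturation Stage against the Proliferation Stage, 0.72 (SE 0.35, adjusted p = 0.12), was the smallest value of the 35.

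Of the peripheral accessory subunits, Ndufa2 was at 78.1, 292, 139 and 195 FPKM at the Proliferation Stage, 402, 164, 280.1 and 212 FPKM at the Differentiation Stage, 388, 277, 450.2 and 403 FPKM at the Maturation Stage and 247, 308 and 291 FPKM in Uninjected muscle. Its values exceeded every Uninjected library in 3 of 4 Maturation Stage libraries, with a log2 fold change of 0.41 (SE 0.19, adjusted p = 0.396), and Ndufa2 rose over the Proliferation Stage (1.24, SE 0.37, adjusted p = 0.0212). Ndufa7, another peripheral subunit, had the least difference of its group from Uninjected muscle at the Proliferation Stage (log2 fold change −0.64, SE 0.38, adjusted p = 0.218), at 19.4, 59.7, 34.6 and 39.1 FPKM against 44.8, 64.7 and 59.0 FPKM in Uninjected muscle. It stood at 57.9, 30.6, 44.5 and 42.5 FPKM at the Differentiation Stage and 66.6, 56.7, 61.9 and 61.1 FPKM at the Maturation Stage. The Maturation Stage values of Ndufa7 overlapped those of Uninjected muscle and, through 1 library, those of the Proliferation Stage, over which it rose on the deposited scale (0.79, SE 0.28, adjusted p = 0.0458) and not as TPM (−0.03, adjusted p = 0.889).

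Ndufa12, which takes the place of the assembly factor Ndufaf2 as the peripheral arm is finished, had the lowest fold change of the 35 genes against Uninjected muscle at all 3 stages. It was at 16.1, 41.6, 15.8 and 25.2 FPKM at the Proliferation Stage, 107, 17.3, 28.7 and 24.9 FPKM at the Differentiation Stage, 23.6, 24.0, 36.9 and 109.6 FPKM at the Maturation Stage and 109.6, 45.1 and 108 FPKM in Uninjected muscle. All 4 Proliferation Stage libraries were below the 3 Uninjected ones (log2 fold change −1.81, SE 0.45, adjusted p = 0.0210, exact permutation p = 0.0286). At the later stages 1 library each was near 108 FPKM and the other 3 were at most 36.9 FPKM, and neither the Differentiation Stage (−1.24, SE 0.60, adjusted p = 0.153) nor the Maturation Stage (−1.05, SE 0.56, adjusted p = 0.459) passed. The call at the Proliferation Stage was lost without its replicate 3 and without Uninjected replicate 1 or 3.

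Ndufa12 (chr10:94198720-94221443, plus strand, GRCm38) has a processed pseudogene in the table, Ndufa12-ps (chr5:130188395-130188796, plus strand), which held more FPKM than the gene in 14 of 15 libraries. Ndufa12-ps was at 25.4, 238, 108 and 142 FPKM at the Proliferation Stage, 102, 102, 181 and 118 FPKM at the Differentiation Stage, 251, 270.3, 219 and 167 FPKM at the Maturation Stage and 113, 237 and 117 FPKM in Uninjected muscle. In the 4 libraries where Ndufa12 was above 100 FPKM the copy was at 102 to 167 FPKM. The sum of the gene and its copy was 41.6, 279, 124 and 167 FPKM at the Proliferation Stage, 209.6, 119, 209.6 and 143 FPKM at the Differentiation Stage, 274, 294, 256 and 276 FPKM at the Maturation Stage and 222, 282 and 225 FPKM in Uninjected muscle. The log2 fold changes of the sum were nearer to the medians of the 35 genes, and the call was lost with it: the log2 fold change was −0.95 (SE 0.60, adjusted p = 0.248) at the Proliferation Stage, −0.54 (adjusted p = 0.161) at the Differentiation Stage and 0.19 (adjusted p = 0.614) at the Maturation Stage. FPKM is per length, and the copy is far shorter than the 1569 bases annotated for the gene, so the sum weights fragments of the copy more. How fragments that match both were assigned is not given in the sources used here, so the level of Ndufa12 by itself is uncertain.

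**Figure D3:**
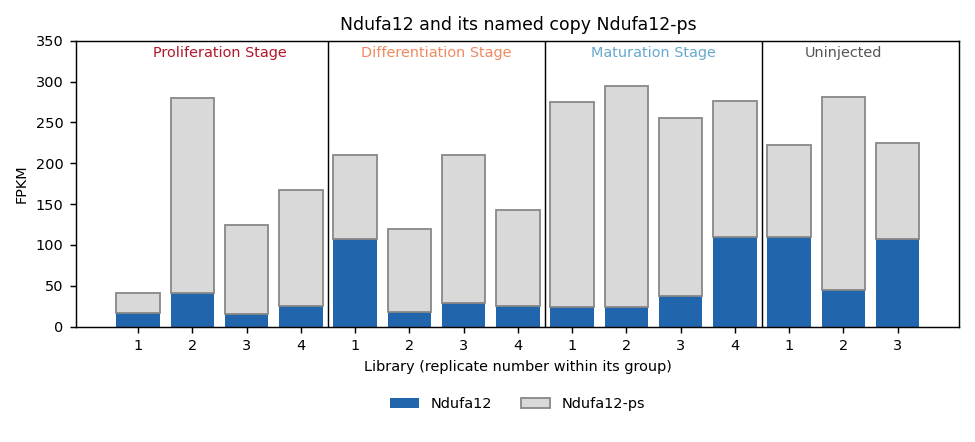
Stacked bars of FPKM of Ndufa12 (blue) and its processed pseudogene Ndufa12-ps (grey) in each of the 15 libraries. The blue part reaches 107 to 109.6 FPKM in 1 Differentiation Stage, 1 Maturation Stage and 2 Uninjected libraries and is at most 45.1 FPKM in the others, while the Maturation Stage sums lie between 256 and 294 FPKM.

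In the proximal membrane arm Ndufa13, also known as GRIM-19 and needed for assembly, had the largest rise of all 35 genes. It was at 37.0, 202, 85.8 and 107 FPKM at the Proliferation Stage, 241, 119.8, 183 and 171 FPKM at the Differentiation Stage, 248, 205, 322 and 283 FPKM at the Maturation Stage and 218, 219 and 201 FPKM in Uninjected muscle. Every Maturation Stage library was above every Proliferation Stage library (log2 fold change 1.51, SE 0.40, adjusted p = 0.0113, exact permutation p = 0.0286). Ndufc1, a small membrane subunit, rose by 1.40 (SE 0.44, adjusted p = 0.0251). It stood at 17.4, 105, 42.0 and 61.0 FPKM, 149, 50.1, 89.7 and 66.1 FPKM, and 137, 100.3, 125 and 136 FPKM at the 3 stages in time order, against 97.1, 106 and 99.8 FPKM in Uninjected muscle, with 1 Proliferation Stage library above the lowest Maturation Stage library.

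Ndufa3, another small membrane subunit, had the lowest proximal fold changes at both early stages. It was at 27.2, 142, 42.8 and 74.4 FPKM at the Proliferation Stage, 138, 50.6, 83.9 and 57.7 FPKM at the Differentiation Stage, 126, 108, 125 and 143 FPKM at the Maturation Stage and 128, 139 and 151 FPKM in Uninjected muscle. In both early stages 1 library reached the Uninjected range and 3 lay below it, with log2 fold changes of −1.22 (SE 0.52, adjusted p = 0.107) and −0.86 (SE 0.34, adjusted p = 0.0864). Ndufc2, the partner of Ndufc1, had the smallest proximal difference from Uninjected muscle at the Proliferation Stage (−0.51, SE 0.42, adjusted p = 0.367), at 36.0, 126, 70.8 and 83.6 FPKM against 105, 98.6 and 105 FPKM in Uninjected muscle. It was at 124, 54.7, 107 and 73.8 FPKM at the Differentiation Stage and 123, 90.3, 152 and 139.5 FPKM at the Maturation Stage, both overlapping Uninjected muscle. Ndufa11, a transmembrane subunit, had the smallest one at the Differentiation Stage (0.00, SE 0.27, adjusted p = 0.991), with 145, 67.9, 116 and 97.0 FPKM against 114, 99.6 and 93.6 FPKM in Uninjected muscle. Its other values were 23.2, 133, 61.8 and 77.1 FPKM at the Proliferation Stage and 125, 103, 136 and 148 FPKM at the Maturation Stage.

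In the distal membrane arm Ndufb4, which lies at the contact with complex III in the respiratory supercomplex, had the lowest distal fold changes at both early stages. It was at 11.7, 70.0, 25.5 and 43.1 FPKM at the Proliferation Stage, 75.6, 33.6, 55.1 and 42.1 FPKM at the Differentiation Stage, 76.5, 62.8, 73.1 and 91.0 FPKM at the Maturation Stage and 64.6, 88.7 and 73.2 FPKM in Uninjected muscle. It rose at the Maturation Stage against the Proliferation Stage (1.27, SE 0.41, adjusted p = 0.0308), where only the library at 70.0 FPKM reached the Maturation Stage range. Ndufb8, another subunit of this arm, was at 13.2, 66.5, 29.6 and 40.1 FPKM, 78.4, 39.6, 65.1 and 42.5 FPKM, and 75.0, 66.8, 82.5 and 91.3 FPKM at the 3 stages in time order, against 82.5, 67.05 and 55.9 FPKM in Uninjected muscle. It rose at the Maturation Stage over the Proliferation Stage with no overlap (1.28, SE 0.38, adjusted p = 0.0203, exact permutation p = 0.0286), although the nearest values, 66.8 and 66.5 FPKM, almost met.

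Ndufb7, a distal subunit on the intermembrane-space side of the membrane, had the highest fold changes of its arm at both early stages. It was at 10.04, 40.3, 22.1 and 26.4 FPKM at the Proliferation Stage, 57.2, 25.5, 41.5 and 34.99 FPKM at the Differentiation Stage, 39.3, 26.9, 45.9 and 46.3 FPKM at the Maturation Stage and 29.1, 32.2 and 26.4 FPKM in Uninjected muscle. Of the Differentiation Stage libraries 3 of 4 were above all Uninjected ones, with a log2 fold change of 0.38 (SE 0.27, adjusted p = 0.309). Ndufab1, which also serves mitochondrial fatty acid synthesis, was at 5.15, 22.002, 12.5 and 16.3 FPKM, 25.1, 12.2, 23.4 and 18.0 FPKM, and 19.4, 21.9, 25.1 and 27.6 FPKM at the 3 stages in time order, against 25.8, 18.7 and 18.1 FPKM in Uninjected muscle. Its ranges overlapped between all groups, and its log2 fold changes against Uninjected muscle were −0.71 (SE 0.44, adjusted p = 0.239), −0.11 (SE 0.27, adjusted p = 0.777) and 0.18 (SE 0.18, adjusted p = 0.717). Ndufab1 also has a processed pseudogene in the table, Ndufab1-ps, at 12.7 to 92.1 FPKM and above the gene in FPKM in 15 of 15 libraries. FPKM is per length, and the copy (chr7:80507787-80508254) is far shorter than the 6883 bases annotated for the gene. A higher FPKM of the copy thus does not mean more fragments. How fragments that match both were assigned is not given here either, so the level of Ndufab1 by itself is uncertain too. The summed FPKM of the gene and its copy weights fragments of the shorter copy more heavily. Its log2 fold changes against Uninjected muscle were −0.80 (SE 0.48, adjusted p = 0.225), −0.19 (SE 0.34, adjusted p = 0.704) and −0.09 (SE 0.18, adjusted p = 0.879). The last one had the opposite sign to that of the gene alone, and the part of this weighting was not tested.

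The 35 genes differed between libraries of a group far more together than apart. At the Proliferation Stage the first library was the lowest in 34 of 35 genes and the second the highest in 35, and at the Differentiation Stage the first was the highest in 35 and the second the lowest in 34. The ratio of the highest to the lowest library had a median over the genes of 5.10 at the Proliferation Stage, 2.11 at the Differentiation Stage, 1.44 at the Maturation Stage and 1.22 in Uninjected muscle. When each library was divided by its median member, the median SD of log2 FPKM between Proliferation Stage replicates was 0.15, against 0.97 without the division, and 35 of 35 genes had a lower SD, as did 15.5% of all genes. Between Differentiation Stage replicates it was 0.11 against 0.47, lower in 35 of 35 genes and in 19.1% of all genes. In Uninjected muscle, where the libraries were close, it was 0.17 with the division and 0.15 without it, and 16 of 35 genes had a lower SD. The divisor was the median of these same 35 genes, so a lower SD was partly built in. The share of all genes is therefore no matched background. Nuclear subunits of complexes II to V moved alike: their summed FPKM over that of complex I was 2.72 to 2.98 at the Proliferation Stage. It was 2.63 to 2.87 at the Differentiation Stage.

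Among the Proliferation Stage libraries the summed fiber markers stood in the same order as complex I and the summed macrophage markers in the opposite one, and among the Differentiation Stage libraries this held but for the lowest pair. The Proliferation Stage libraries, with summed complex I levels of 988, 4918, 2159 and 2914 FPKM, had summed fiber-marker levels of 6456, 70776, 26516 and 44788 FPKM and summed macrophage-marker levels of 3143, 1298, 1984 and 1315 FPKM. The Differentiation Stage libraries, at 5360.1, 2433, 4116 and 3014 FPKM, had 98824, 51468, 71653 and 44903 FPKM of fiber markers and 81.6, 796, 306 and 1155 FPKM of macrophage markers. Summed fibro-adipogenic markers were at 1242, 365, 967 and 929.6 FPKM in the Proliferation Stage libraries and 183, 1744, 764 and 1634 FPKM in the Differentiation Stage libraries, the opposite order to complex I in both groups. Summed satellite cell and myoblast markers were at 504, 300.5, 374 and 232 FPKM, then 73.7, 136, 85.6 and 261 FPKM, and the library with the most complex I transcript had the least of them at the Differentiation Stage but not at the Proliferation Stage. The library with the most complex I transcript thus had the most fiber-marker and the least macrophage-marker transcript in both groups. In the Maturation Stage and in Uninjected muscle the order was not shared. The part of the makeup of the libraries in the stage differences was not tested.

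Measured relative to the median member of each library, limma called 0 of 35 genes in all 6 comparisons, with a lowest adjusted p of 0.0615 for Ndufa13 at the Maturation Stage against the Proliferation Stage (log2 difference 0.51) and of 0.0661 for Ndufb7 at the Differentiation Stage against Uninjected muscle (0.72). This measure divides by the median of the same 35 genes and so centers their log2 differences near 0. A low number of calls was therefore largely built in. Without Ndufa12 these log2 differences against Uninjected muscle ran from −0.40 to 0.46 at the Proliferation Stage, −0.52 to 0.72 at the Differentiation Stage and −0.29 to 0.28 at the Maturation Stage. Those of Ndufa12 were −0.95, −0.91 and −1.18, outside the range of the other 34 genes each time, with unadjusted p-values of 0.0558, 0.0444 and 0.0423 and adjusted p-values of 0.164, 0.144 and 0.430 (limma).

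The promoters were searched for the sites of 4 kinds of factor known to act on respiratory genes in mammalian cells. Windows of 250 bases before to 50 bases after the start of transcription (RefSeq, GRCm38.p6) were at hand for 32 of 35 genes and for 27025 genes in all. On either strand, GCGCANGCG, the core of the NRF1 site, was in 8 of 32 (25%) against 6.47% of all promoters. AAGATGGC, the core of the YY1 site, was in 7 (21.9%) against 2.88%, AAGGTCA, a site of estrogen-related receptors (ERR), in 3 (9.38%) against 4.66%, and CCGGAAG, a site of ETS factors such as GABP, in 4 (12.5%) against 9.12%. The letters were chosen after several forms of them had been looked at, so these shares are a description. All 7 matches of AAGATGGC lay 23 to 39 bases after the start and read on the gene's own strand, and the ATG inside the letters was the annotated start codon in 7 of 7. The median log2 fold change at the Proliferation Stage was −0.83 with and −0.96 without GCGCANGCG, and −1.07 with and −0.91 without AAGATGGC, with ranges that overlap.

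The stretches of the 7 genes with AAGATGGC are printed to show how the letters sit over the start codon. Each is 30 bases of the gene's own strand, 5′ to 3′, with AAGATGGC in capitals, from chr10:80249462-80249491 (plus, Ndufs7), chr13:114388045-114388074 (minus, Ndufs4), chr13:73328433-73328462 (minus, Ndufs6), chr6:126849097-126849126 (minus, Ndufa9), chr7:3617384-3617413 (plus, Ndufa3), chr3:51408915-51408944 (minus, Ndufc1) and chr19:44555393-44555422 (minus, Ndufb8) of GRCm38.p6.
Ndufs7: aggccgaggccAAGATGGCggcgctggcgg
Ndufs4: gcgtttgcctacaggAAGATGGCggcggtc
Ndufs6: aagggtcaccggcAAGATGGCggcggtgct
Ndufa9: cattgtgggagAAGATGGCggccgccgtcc
Ndufa3: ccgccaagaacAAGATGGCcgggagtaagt
Ndufc1: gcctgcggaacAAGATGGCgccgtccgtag
Ndufb8: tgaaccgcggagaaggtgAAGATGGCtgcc

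For the NRF1 letters, 3 promoters of membrane-arm genes are printed as examples of a match upstream of the start. Ndufs5, like Ndufa11, is a proximal subunit. The stretches are 100 bases each on the gene's own strand with GCGCANGCG in capitals (10 letters in Ndufa11, where matches on both strands overlap), from chr4:123718230-123718329 (minus, Ndufs5), chr17:56717657-56717756 (plus, Ndufa11) and chr16:37654505-37654604 (minus, Ndufb4).
Ndufs5: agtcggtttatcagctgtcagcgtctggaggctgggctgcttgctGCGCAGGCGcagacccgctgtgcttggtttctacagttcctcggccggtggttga
Ndufa11: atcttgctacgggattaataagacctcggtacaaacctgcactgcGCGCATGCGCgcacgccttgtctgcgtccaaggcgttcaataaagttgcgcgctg
Ndufb4: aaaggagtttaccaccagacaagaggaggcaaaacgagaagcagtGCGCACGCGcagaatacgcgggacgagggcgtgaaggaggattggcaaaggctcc

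The 7 subunits encoded in mitochondrial DNA form the proton-pumping core of the membrane arm, and their transcripts were lower relative to the nuclear ones in all injured libraries than in Uninjected muscle. The summed FPKM of the 7 over that of the 35 was 3.97, 7.56, 4.79 and 9.33 at the Proliferation Stage, 7.59, 5.67, 5.73 and 6.66 at the Differentiation Stage, 9.83, 10.9, 6.31 and 9.92 at the Maturation Stage and 17.3, 12.9 and 17.9 in Uninjected muscle. All 12 injured libraries were below the 3 Uninjected ones. The means were 6.41 ± 2.48, 6.41 ± 0.905 and 9.24 ± 2.01 at the 3 stages (SD, n = 4 each), against 16.1 ± 2.71 in Uninjected muscle (n = 3). This ratio is within a library and does not depend on its scaling. mt-Nd1, for example, was at 1355, 13188, 3485 and 8813 FPKM at the Proliferation Stage, 12617, 4204, 7184 and 6307 FPKM at the Differentiation Stage, 15065, 15126, 11726 and 18122 FPKM at the Maturation Stage and 25374, 18581 and 24886 FPKM in Uninjected muscle, with no overlap between any stage and Uninjected muscle.

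Relative to the median nuclear member, limma called 6 of 7 mitochondrially encoded subunits lower at the Proliferation Stage, where 0.889% of all genes were called lower on that measure. The log2 differences of the 6 ran from −1.09 for mt-Nd6 (adjusted p = 0.0484) to −2.68 for mt-Nd4l (adjusted p = 0.00527), and mt-Nd3 had −1.11 (adjusted p = 0.102). The count was 3 without Uninjected replicate 1 or 3, and 4 without Uninjected replicate 2 or Proliferation Stage replicate 3. All 7 of 7 were called lower at the Differentiation Stage, against 3.78% of all genes, from −0.94 for mt-Nd6 to −1.79 for mt-Nd2 (adjusted p = 0.000153). None, 0 of 7, was called at the Maturation Stage, against 0.00827% of all genes, with log2 differences of −0.60 to −1.61 and adjusted p-values of 0.182 to 0.367. On the deposited scale 2 of 7 fell at the Proliferation Stage (mt-Nd4l and mt-Nd5), 7 of 7 at the Differentiation Stage and 0 at the Maturation Stage, with medians of −2.47, −1.72 and −0.65. Of all genes 9.05% fell at the Proliferation Stage and 12.5% at the Differentiation Stage on that scale. mt-Nd4 and mt-Nd4l overlap, as do mt-Nd5 and mt-Nd6 on opposite strands, and whether counting used strand is not stated.

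**Figure D4:**
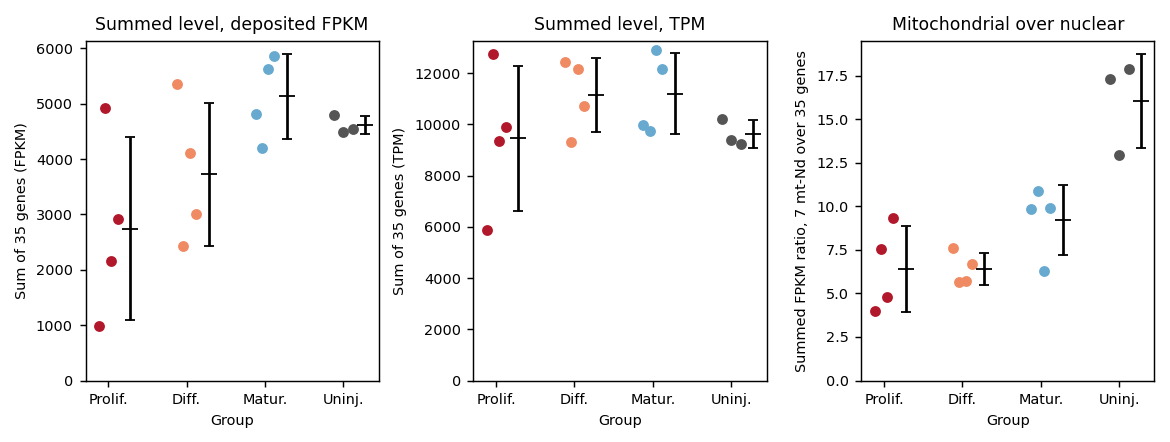
Points are the 15 libraries by group, with the mean and SD beside them: the summed FPKM of the 35 nuclear genes (left), the same sum as TPM (middle), and the summed FPKM of the 7 mitochondrially encoded subunits over that of the 35 (right). In the right panel all 12 injured libraries lie at 3.97 to 10.9 and the Uninjected libraries at 12.9 to 17.9, while the sums overlap.

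The nuclear subunits of complexes II to V, which complete the chain and make ATP, had medians close to those of complex I: −0.91 at the Proliferation Stage, −0.21 at the Differentiation Stage and 0.15 at the Maturation Stage against Uninjected muscle, and 1.07 at the Maturation Stage against the Proliferation Stage. Of 41 genes, 2 rose and 0 fell at each of the Proliferation and Differentiation Stages, where 20.1% and 17% of all genes rose and 9.05% and 12.5% fell. Both were isoform genes of cytochrome c oxidase expressed in many tissues, Cox8a (2.18 and 1.51 on the log2 scale, adjusted p = 0.00135 and 0.00363) and Cox6a1 (2.15 and 1.25, adjusted p = 0.00179 and 0.00974). Over the Proliferation Stage 19 rose at the Maturation Stage, where 13.3% of all genes rose, led by the muscle isoform genes Cox7a1 (2.36, adjusted p = 0.0197) and Cox8b (1.75, adjusted p = 0.0455). The 2 that fell were again Cox8a and Cox6a1, where 20.5% of all genes fell. Cox8a and Cox6a1 also rose as TPM (3.08 and 3.05 at the Proliferation Stage, adjusted p = 0.000298 and 0.000482), whereas the list median was −0.02 on that scale. At the Differentiation Stage 10 of 41 were called higher and 0 lower as TPM, with a median of 0.37, beside 27.1% and 3.59% of all genes. At the Maturation Stage against the Proliferation Stage 1 gene, Cox7a1, was called higher as TPM and 3 lower, beside 2.37% and 39.5% of all genes. No gene of the 35 was called in opposite directions in this way. The highest mean level of these 41 genes was that of Cox6a2, the muscle isoform of subunit 6a.

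The 18 complex I assembly factors, which build the enzyme and leave it, had medians of −0.44, −0.31 and 0.16 against Uninjected muscle at the 3 stages in time order. At the Proliferation Stage 1 rose and 1 fell, beside 20.1% and 9.05% of all genes. Ndufaf2, which Ndufa12 replaces, rose by 0.64 (adjusted p = 0.0449) and Tmem186 fell by 0.79 (adjusted p = 0.0270). Ndufaf2 alone rose at the Differentiation Stage, by 0.65 (adjusted p = 0.0273), and 4 factors fell, where 17% of all genes rose and 12.5% fell. Among the 4 were Ndufaf5, a methyltransferase that modifies Ndufs7, at −1.0007 (adjusted p = 0.0187) and Dmac2 at −0.82 (adjusted p = 0.0214). None (0) passed at the Maturation Stage against Uninjected muscle, with 3 at an unadjusted p under 0.05. Against the Proliferation Stage 5 rose and 0 fell, beside 13.3% and 20.5% of all genes, led by Ecsit (1.43, adjusted p = 0.00973) and Ndufaf6 (1.31, adjusted p = 0.0165). Dmac1 had the highest level of the list. As TPM the list median was 0.44, 0.24 and 0.24 against Uninjected muscle, so its direction at both early stages depends on the scale. As TPM 4 of 18 were called higher and 0 lower at each early stage against Uninjected muscle. Of all genes 32% and 27.1% were called higher on that scale at these stages, and 1.09% and 3.59% lower. At the Maturation Stage against the Proliferation Stage 1 of 18 was called higher and 3 lower as TPM, beside 2.37% and 39.5% of all genes. Ndufaf2 rose on both scales (1.55 and 1.26 as TPM, adjusted p = 0.00977 and 0.00883), while Tmem186, at 0.03, Ndufaf5, at −0.46, and Dmac2, at −0.28, did not pass as TPM.

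Among 16 regulators of mitochondrial genes, 1 rose and 2 fell at the Proliferation Stage, beside 20.1% and 9.05% of all genes. Gabpb1, a subunit of the ETS factor GABP, rose by 0.70 (adjusted p = 0.0423), and Tfb2m, a mitochondrial transcription factor, and Nrip1, a corepressor of respiratory genes, fell by 1.16 (adjusted p = 0.0469) and 0.56 (adjusted p = 0.0487). By the Differentiation Stage 3 of 15 were lower than in Uninjected muscle, beside 12.5% of all genes, among them Perm1 at −1.43 (adjusted p = 0.0473) and Esrra, which encodes an ERR factor, at −1.06 (adjusted p = 0.0307). The list median was −0.32, −0.22 and −0.08 against Uninjected muscle at the 3 stages in time order. Among 15 genes of mitochondrial mass and protein import, 0 passed at the Proliferation Stage, with 5 at an unadjusted p under 0.05, and at the Differentiation Stage 1 rose, Tomm22 (0.60, adjusted p = 0.0342), and 2 fell, Vdac1, the main outer-membrane channel, by 1.07 (adjusted p = 0.0282) and Timm23 by 0.84 (adjusted p = 0.0418). Of all genes 17% rose and 12.5% fell at the Differentiation Stage, so the counts of this list were near or below the background. As TPM 5 of 15 were called higher and 0 lower at the Proliferation Stage, where 32% of all genes were called higher and 1.09% lower. The list median was 0.44 as TPM against −0.45 on the deposited scale. At the Differentiation Stage 2 of 15 were called higher and 1 lower as TPM, beside 27.1% and 3.59% of all genes. At the Maturation Stage against the Proliferation Stage 5 rose and 1 fell on the deposited scale, beside 13.3% and 20.5% of all genes. As TPM 1 was called higher and 7 lower, beside 2.37% and 39.5% of all genes. Of the NADH supply genes, 12 of 14 were tested and had a list median of −1.29 at the Proliferation Stage, which was −0.37 as TPM, where 1 of 13 was called higher and 1 lower. This list includes Gpd2, the glycerol-3-phosphate dehydrogenase of the inner membrane, which does not itself make NADH. Gpd2 fell by 2.19 (adjusted p = 0.0301) at the Proliferation Stage and by 1.79 (adjusted p = 0.0119) at the Differentiation Stage. It rose at the Maturation Stage against the Proliferation Stage (2.12, adjusted p = 0.00583). Gpd2 passed in the same directions as TPM (−1.38, −1.26 and 1.38 in these comparisons), as did Gabpb1 (1.66) and Vdac1 (−0.49). Tfb2m (−0.33), Nrip1 (0.19), Perm1 (−0.87) and Esrra (−0.50) did not pass as TPM. On that scale the medians of the regulators were 0.50, 0.26 and −0.02. Of the 16 regulators 2 were called higher and 0 lower at the Proliferation Stage, and 1 and 0 at the Differentiation Stage. At the Maturation Stage against the Proliferation Stage 0 were called higher and 6 lower. The shares of all genes called as TPM in these comparisons are those given above for the import genes.

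Protein synthesis was measured in a separate table as the fractional synthesis rate (FSR) from heavy water labelling, which the paper reports as percent turnover per day. That table gives a deposited log2 ratio of injured over control muscle per protein and stage. It is a ratio of means without values per animal, so no test was made here. Of the 35 subunits 12 are in that table and 23 are not. At the Proliferation Stage 3 had a value, all below 0: Ndufb10 at −1.36, Ndufs6 at −0.39 and Ndufs1 at −0.23, where the median of 71 proteins was 0.02. All 12 of 12 were above 0 at the Differentiation Stage, with a median log2 ratio of 1.99 (3.98-fold), where 122 of 124 proteins were above 0 with a median of 2.21. Later, at the Maturation Stage, 11 of 12 were above 0, with a median of 1.14 (2.21-fold), where 118 of 122 proteins were above 0 with a median of 1.57. The complex I proteins thus had lower medians than all listed proteins at both later stages, within a wide spread. The paper compared each protein's rate with control, corrected for multiple comparisons. It marked none of the 12 as different at the Differentiation Stage and none of the 3 at the Proliferation Stage. Of the 12 it marked only Ndufb10, Ndufs1, Ndufv1, Ndufa7, Ndufa8 and Ndufs5 at the Maturation Stage. A rise of each single subunit at the Differentiation Stage is thus not established.

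The ratios of single subunits differed in value, and these differences were not tested. The log2 FSR ratio at the Differentiation Stage ran from 0.88 for Ndufa9, a peripheral subunit near the ubiquinone site, to 3.08 for Ndufb10, a distal subunit, with Ndufs8 at 2.88 and Ndufs1 at 2.35. The flavin subunit Ndufv1 had 2.34 and its partner Ndufv2 had 1.04. All 12 ratios were lower at the Maturation Stage than at the Differentiation Stage, by the least for Ndufs3, which stood at 1.09 against 1.10. Ndufb10 had 1.95, Ndufs1 1.87 and Ndufs8 1.83, and Ndufb9 alone was below 0, at −0.30, after 1.94 at the Differentiation Stage. For the transcripts of the 35 genes the median log2 difference between these stages was 0.52 on the deposited scale and 0.014 as TPM, and it was not tested against that of the proteins. The labelling periods differ between stages, and the rates are per day.

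**Figure D5:**
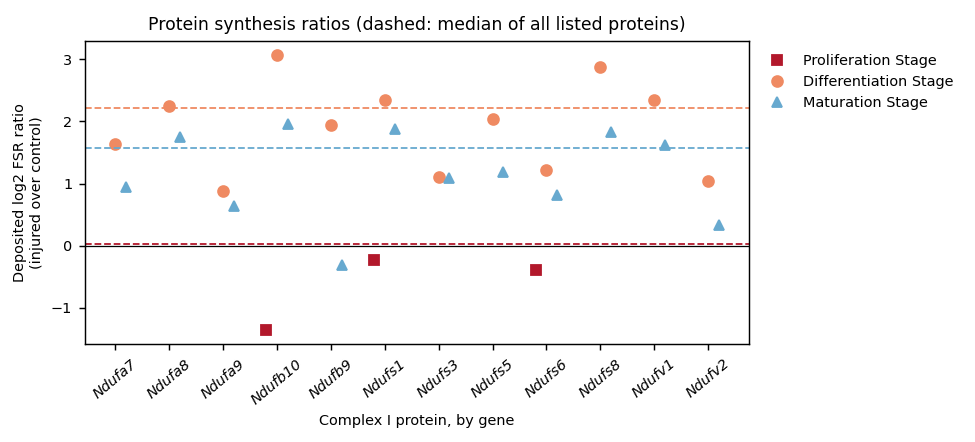
Deposited log2 FSR ratios, injured over control, of the 12 complex I proteins in the protein table at the Proliferation Stage (squares), Differentiation Stage (circles) and Maturation Stage (triangles); dashed lines are the medians of all listed proteins at 0.02, 2.21 and 1.57. All 12 circles and 11 triangles lie above 0 and the 3 squares lie below it.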

How the data were processed

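RNA sequencing covered 15 libraries of mouse tibialis anterior muscle. Libraries of poly(A) RNA were read from both ends, and the authors deposited FPKM values per gene. The submitters' processing notes name the build mm10. Aligner, counter and annotation: not given in the sources used here. For proteins the authors deposited log2 ratios of FSR, injured over control. The deposited fold changes, p-values, −log10 p-values, averages and SDs are the authors' own comparisons and were not used. The number of unused per-sample columns was 0.

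Fragments per gene were recovered from the steps of the FPKM values and GENCODE M21 (GRCm38) gene lengths; 100% of member values were whole within 0.01. Each stage was compared with Uninjected libraries in a limma 3.58.1 fit (R 4.3.3, statmod 1.5.0) of those groups alone, on log2(FPKM + 0.5) with the trend and robust options of eBayes; a gene had to reach 0.5 FPKM in 3 or more libraries, and the fold changes of low genes are understated. For pairs of stages all 15 libraries entered 1 fit. P-values were adjusted over every tested gene by Benjamini-Hochberg (threshold 0.05). Mean FPKM per gene was also compared by a two-sided exact permutation test, whose smallest p is 0.0286 (35 or 70 splits). All p-values measure the spread between these libraries. Scores over the members carry no test. Fits were tested on simulated data. Python 3.11.15 with pandas 2.3.3, numpy 2.4.6, scipy 1.17.1 and matplotlib 3.10.9 did the rest.

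The members and lists were chosen with earlier results of these data known. Values in every library are given for the 6 core subunits, for the lowest and highest log2 fold change of each other role group at the Proliferation and Differentiation Stages, and for the 3 largest called changes at the Maturation Stage; other lists have counts, medians and at most 4 genes, and genes named beyond these were chosen after their values were seen. Alternatives were TPM (with and without mitochondrially encoded genes), quantile normalization, pseudocounts of 0.1 and 1, no filter or at least 1 FPKM, plain eBayes, the methods' unpaired test on FPKM, other samples in the fit, the subject number as a block and leaving out each library. Scaling to fragments in genes, the sums with pseudogenes and the measure relative to the median member were added after seeing the data. The lowest chi-square per degree of freedom between replicates of a group was 6.25, so every library was counted as its own replicate.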

Additional observations from a re-analysis of the deposited data

Results flagged for a closer look

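Ndufa12 stood apart in 1 library of each later stage. At the Differentiation Stage its replicate 1 was at 107 FPKM, against 17.3 to 28.7 FPKM in the other 3, and at the Maturation Stage its replicate 4 was at 109.6 FPKM, against 23.6 to 36.9 FPKM. Both gaps, divided by the group's range, exceed Dixon's 95% critical value for 4 libraries. These were 2 of 111 groups examined, where chance gives about 1 in 20, or 5.5. The summed FPKM of Ndufa12 and its processed pseudogene, 209.6 and 276 in these libraries, lay within or at the edge of the range of the other libraries of each group.

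On the deposited scale, 20 of the 35 nuclear complex I genes were called higher at the Maturation Stage than at the Proliferation Stage. The test was limma at an adjusted p under 0.05, where 13.3% of all genes were called higher. The count was 1 as TPM, 1 in the fit of those groups alone and 0 by the unpaired test on FPKM. It ran from 1 to 34 with a library left out, so an effect of CTX that differs between stages is not established.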

How the results depend on the processing

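The calls depended on the scaling, the test, the groups in the fit and single libraries. At the Proliferation Stage against Uninjected muscle (1 gene called), TPM, the unpaired test on FPKM and the replicate block each called 0, and the fit of all 15 libraries called 6, all lower. At the Differentiation Stage (0 called), 3 were called higher as TPM, 1 with mitochondrially encoded genes left out and 1 when scaled to the fragments in genes, the median as TPM was 0.22, and the log2 ratio of the summed level was 0.21 as TPM against −0.31. At the Maturation Stage against the Differentiation Stage, the fit of those groups alone called 1, and the median was 0.014 as TPM, 0.12 with mitochondrially encoded genes left out, 0.27 after quantile normalization and 0.10 when scaled to fragments. At the Maturation Stage against the Proliferation Stage (20 called), the counts were 1 as TPM, 2 with mitochondrially encoded genes left out, 6 with no filter, 0 by the unpaired test, 3 with the replicate block, 1 when scaled to fragments and 1 with those groups alone, and the median was 0.23 as TPM, 0.39 with mitochondrially encoded genes left out and 0.42 when scaled to fragments. Ndufa7 in this comparison turned to −0.031 as TPM. The cause of these shifts was not tested. Apart from TPM, the shares of all genes called under these alternatives or without single libraries are not given here. The counts thus describe dependence on the processing and are no result about the members. Leaving out 1 library at a time gave 0 to 18 calls and medians of −1.29 to −0.55 at the Proliferation Stage, 0 to 5 and −0.53 to −0.17 at the Differentiation Stage, and 0 to 0 and 0.07 to 0.22 at the Maturation Stage, each against Uninjected muscle. Between stages it gave 0 to 1 and 0.18 to 0.96 (Differentiation against Proliferation), 0 to 0 and 0.33 to 0.71 (Maturation against Differentiation), and 1 to 34 and 0.67 to 1.40 (Maturation against Proliferation). The mitochondrially encoded subunits called lower relative to the median member numbered 3 to 7, 6 to 7 and 0 to 0 at the 3 stages. The replicate numbers do not pair the libraries: over 21 pairs of the same number the correlation of deviations was −0.48 to 0.07, and 0 exceeded 0.1. Alternatives to the results that answer a comparison were labelled by the size of the shift. Of these, 238 were labelled the same, 21 gave fewer calls, 9 gave more calls and 11 moved. The same meant a similar call count, or a median that shifted by less than the SD of the library medians. A median labelled the same could change sign, as at the Differentiation Stage against Uninjected muscle (0.12 scaled to fragments in genes, −0.36 deposited). Of the alternatives to single genes 191 were labelled the same, 228 lost the call and 1 reversed. Scaling to the fragments in genes and the measure relative to the median member were chosen after seeing the data. The lowest member value rested on 24 fragments, and the part of depth was not tested.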
